A study of Mus musculus with 4 samples.

Results

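Collagens are the triple-helical proteins of the extracellular matrix, and the 43 mouse collagen genes measured here were chosen by name: every protein-coding gene called Col, a number, the letter a and a second number, present in both deposited tables of embryonic day 15 mouse cortex. They are 43 of 19968 genes in both tables, with 11 chains of fibrillar collagens, 6 chains of the basement membrane collagen IV, 9 chains of FACIT collagens, which sit on the surface of fibrils, and 17 chains of other types. The libraries labelled cKO come from Prdm16cKO embryos, a conditional knockout of the transcriptional regulator Prdm16, and are called cKO 1 and cKO 2. The control library, called floxed, comes from Prdm16fl/fl mice, which carry floxed Prdm16 alleles. Both groups are C57BL/6, the labels name no agent for either, and the Cre driver, the deleted exon and any pooling of embryos are not stated in the labels. The labels list 2 samples in each group, 1 of each with the unexplained word Blood in its title, the design text speaks of triplicates, and which sample fills which column is not given. The tables hold 2 libraries for cKO and 1 for floxed, so each cKO library is described on its own and floxed levels carry no replicate error.

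Each collagen molecule is a trimer of alpha chains, and separate genes encode the chains. Collagens I, III and V form the fibrils of connective tissue, collagen VI forms beaded microfilaments, and collagen IV forms the network of every basement membrane. In the embryonic brain, collagens I and III are known from the meninges and from perivascular fibroblasts, and collagen IV from the pial and vascular basement membranes. Collagens II, IX and XI are best known from cartilage, where they share a fibril.

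Levels are counts scaled to the library total (CPM). Library totals were 19514882 for cKO 1, 18579178 for cKO 2 and 17839662 for floxed, at which 3 counts, the upper limit a count of 0 allows, amount to 0.154, 0.161 and 0.168 CPM. Prdm16 had 34.6 CPM in cKO 1 and 24.1 CPM in cKO 2, against 30.2 CPM in floxed, so cKO 1 was above floxed for the targeted gene, counter to its label. A gene-wide count checks a deletion of part of a gene only in part. The labels do not say whether the cKO libraries are separate embryos, so the fit may measure technical spread only. Fewer cells of a type and less RNA per cell cannot be told apart in bulk tissue.

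The collagen transcripts separated the libraries labelled cKO from each other more than they separated cKO from floxed. Their sum was 1803 CPM in cKO 1 (1784 to 1822, exact 95% Poisson interval) and 539 CPM in cKO 2 (529 to 550.0), against 1436 CPM in floxed (1418 to 1454). The ratio to floxed was 1.26 in cKO 1 (1.24 to 1.28) and 0.376 in cKO 2 (0.367 to 0.384). Intervals cover counting error only, here and below, and both ratios share the floxed library. Of the 39 genes with enough counts to be tested, 27 had a floxed level between those of the cKO libraries, against 40.5% of all 16658 genes tested. Both cKO libraries lay above floxed for 4 (27.6% of all genes) and below it for 8 (31.9%).

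**Figure D1:**
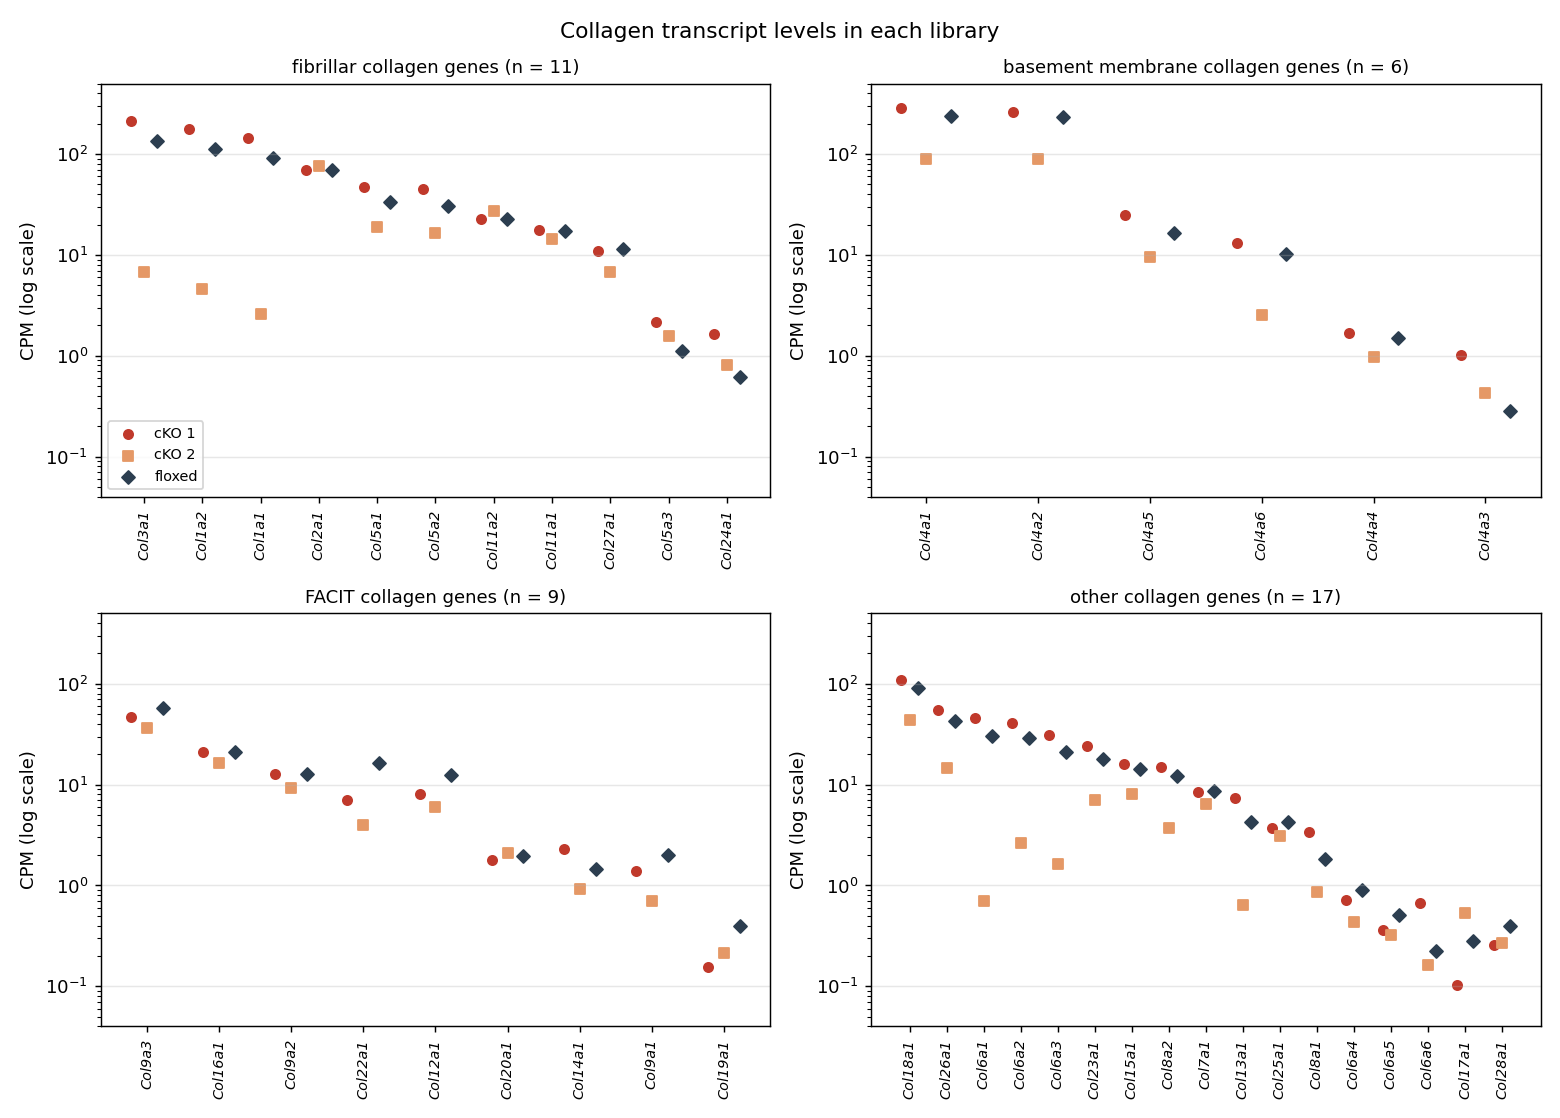
Level of each of the 43 collagen genes (CPM, log scale) in cKO 1 (circles), cKO 2 (squares) and floxed (diamonds), by class and ordered by mean level; each point is 1 library. Col1a1, Col1a2, Col3a1 and Col6a1 to Col6a3 lie between 0.700 and 6.84 CPM in cKO 2, while Col2a1 lies between 69.4 and 76.2 CPM in all 3 libraries.

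No collagen gene passed the test of cKO against floxed. The edgeR quasi-likelihood test, with Benjamini-Hochberg adjustment over all genes, called 0 of 39 collagen genes and 0% of all genes, and every collagen gene had an adjusted p of 1. The limma-voom and DESeq2 tests also called 0 of the 39. At an unadjusted p under 0.05 the edgeR test listed 2 of them, Col22a1 and Col12a1, and 1.3% of all genes. The spread in this fit comes from the cKO libraries alone, with 1 residual degree of freedom, and a gene on which they differ widely carries a wide spread in it. "Higher" and "lower" below therefore describe the libraries, not the genotypes.

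Taken as single libraries, 18 of the 39 tested collagen genes were more than 2-fold lower in cKO 2 than in floxed with an interval that left out 1, against 6.14% of all genes, and 0 were higher by that measure (1.14% of all genes). In cKO 1 only Col22a1 was lower (1.21% of all genes), and 2 were higher (1.63%), Col4a3 and Col24a1, both on few counts. With the interval alone, 21 were higher in cKO 1 (17.9% of all genes) and 27 lower in cKO 2 (24.6%). The authors' deposited tables mark the same genes as significant: Col4a3 and Col24a1 as up (1.31% of all genes there) and Col22a1 as down (0.942%) with cKO 1, and 18 as down (5.8%) and 0 as up (1.04%) with cKO 2.

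Among the fibrillar chains, those of collagens I and III held the widest gap between the libraries. Col1a1, the alpha 1 chain of collagen I, had 143 CPM in cKO 1 and 2.58 CPM in cKO 2, against 90.6 CPM in floxed, on 2788, 48 and 1616 counts. Its partner chain Col1a2 had 178 CPM in cKO 1 and 4.58 CPM in cKO 2, against 111 CPM in floxed. Col3a1, which encodes collagen III, a ligand of the receptor Adgrg1 (GPR56) in the developing cortex, had 215 CPM in cKO 1 and 6.84 CPM in cKO 2, against 136 CPM in floxed. For these genes cKO 1 was the highest library and cKO 2 far below the others, with floxed between them. The ratios to floxed in cKO 1 were nearly alike, at 1.58 for Col1a1 (1.48 to 1.68), 1.6 for Col1a2 (1.51 to 1.69) and 1.58 for Col3a1 (1.5 to 1.66). In cKO 2 the ratio was 0.0285 for Col1a1 (0.0209 to 0.038), a level 35.1-fold lower than in floxed. It was 0.0411 for Col1a2 (0.0327 to 0.0511) and 0.0502 for Col3a1 (0.0416 to 0.060), 24.3-fold and 19.9-fold lower. The mean over cKO libraries, 72.7 ± 99.2 CPM for Col1a1 (SD, n = 2), therefore describes neither library.

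Collagen V, which nucleates collagen I fibrils, differed less. Col5a1 had 47.5 CPM in cKO 1 and 18.9 CPM in cKO 2, against 33.7 CPM in floxed, and Col5a2 had 45.0, 16.6 and 30.4 CPM in the same order. The ratios in cKO 2 were 0.561 (0.491 to 0.641) and 0.547 (0.474 to 0.631), and those in cKO 1 were 1.41 (1.27 to 1.56) and 1.48 (1.33 to 1.65). Col5a2 is the nearest collagen gene to Col3a1, end to end on chromosome 1 with 24614 bases between them, yet the Col3a1 interval in cKO 2 lies far below that of Col5a2. Per kilobase of transcript, the level of Col3a1 was 5.68 times that of Col5a2 in cKO 1 and 0.489 times in cKO 2, against 5.34 times in floxed. Col5a3, the least abundant chain of collagen V, had 2.15 CPM in cKO 1 and 1.56 CPM in cKO 2, against 1.12 CPM in floxed.

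The fibrillar chains of collagens II and XI stayed close to floxed in both libraries. Col2a1, the chain of collagen II, had 69.4 CPM in cKO 1 and 76.2 CPM in cKO 2, against 70.1 CPM in floxed, with ratios of 0.990 (0.916 to 1.07) and 1.09 (1.01 to 1.17). Col11a1 had 17.8 CPM in cKO 1 and 14.5 CPM in cKO 2, against 17.2 CPM in floxed. Col11a2 had 22.8 CPM in cKO 1 and 27.1 CPM in cKO 2, against 22.6 CPM in floxed. The cKO libraries thus lay within 1.20-fold of floxed for all 3 genes. The lowest bound of these ratios was 0.717, for Col11a1 in cKO 2. Of the remaining fibrillar chains, Col27a1 had 10.9 CPM in cKO 1 and 6.78 CPM in cKO 2, against 11.4 CPM in floxed. Its ratio in cKO 2 was 0.596 (0.473 to 0.748), below floxed by more than counting error. Col24a1 had 32 counts in cKO 1 and 15 in cKO 2, against 11 in floxed, a ratio of 2.66 in cKO 1 with a wide interval of 1.31 to 5.85.

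**Figure D2:**
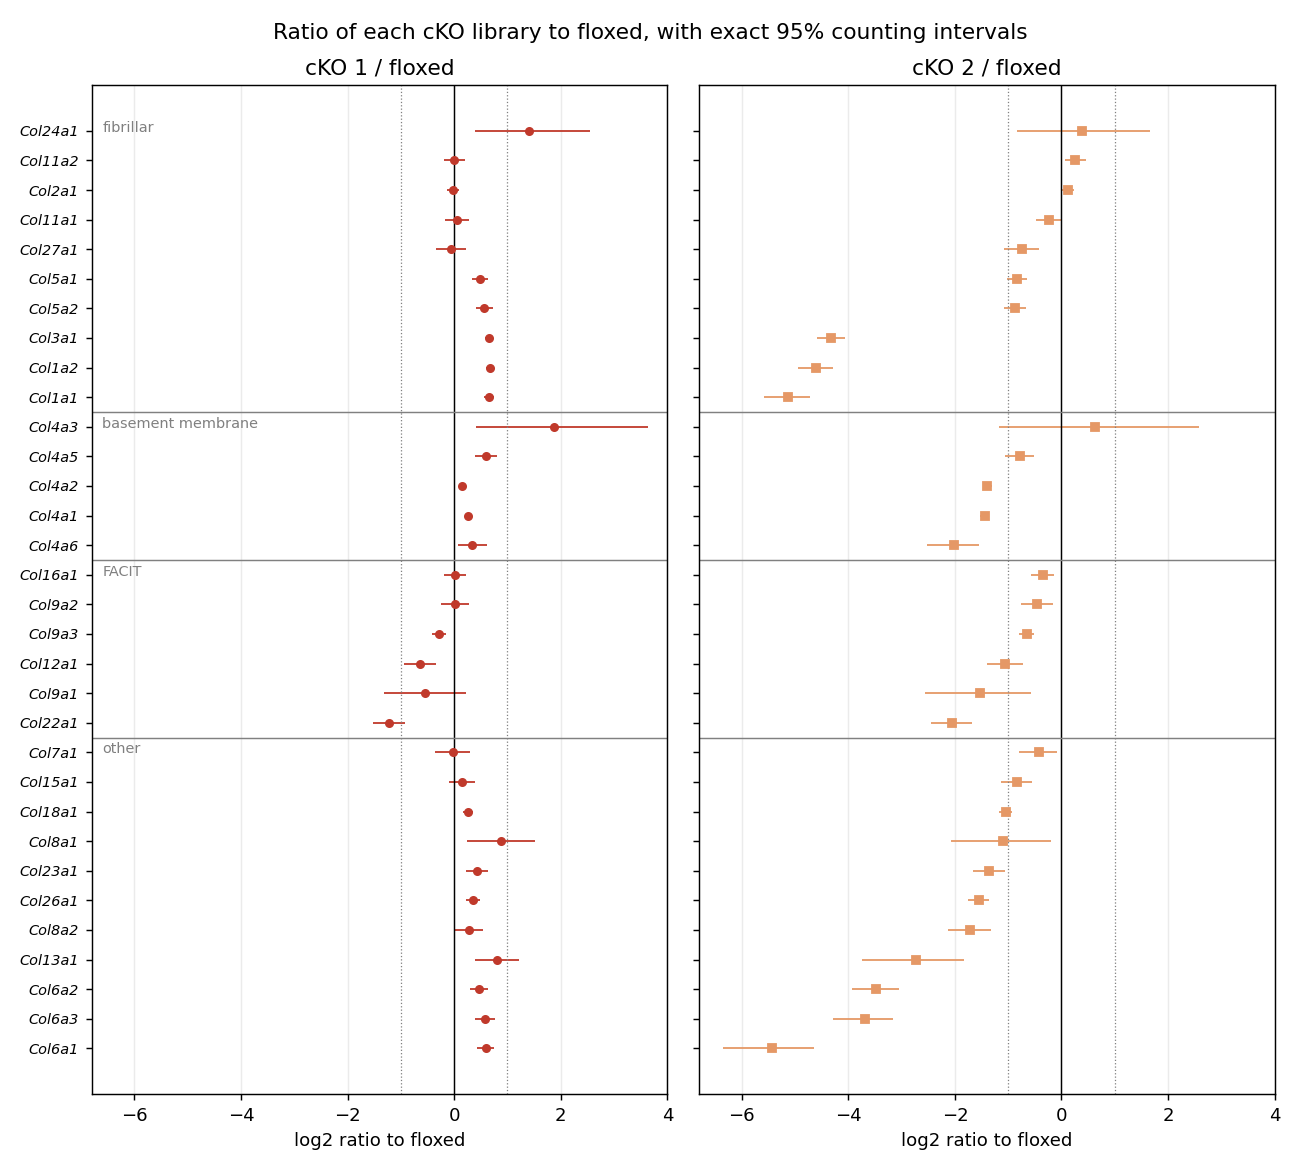
Log2 ratio of cKO 1 (left) and cKO 2 (right) to floxed for the 32 collagen genes named individually, by class and ordered by the ratio in cKO 2; bars are exact 95% counting intervals and dotted lines mark 2-fold. Col6a1, Col1a1, Col1a2 and Col3a1 lie below -4 in cKO 2, whereas no gene passes -1 in cKO 1 except Col22a1.

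Among 100-base stretches just before the annotated start, 4 are shown because they belong to genes at the ends of this contrast: Col3a1 and Col6a3, far lower in cKO 2 than in floxed, and Col11a1 and Col11a2, close to floxed. The sequences are from RefSeq on GRCm38.p6, written 5′ to 3′ on the strand of the gene, and none overlaps an annotated exon in GENCODE M21. Capitals mark a CCAAT box (CCAAT or ATTGG) or a GC box (GGGCGG or CCGCCC), searched on both strands with the TATA box (TATAAA or TTTATA), and no letters of these motifs overlap in the stretches shown.
Col3a1, plus strand, chr1:45311438-45311537: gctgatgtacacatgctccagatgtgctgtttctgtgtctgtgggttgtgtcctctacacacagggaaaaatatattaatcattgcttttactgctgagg
Col6a3, minus strand, chr1:90843972-90844071: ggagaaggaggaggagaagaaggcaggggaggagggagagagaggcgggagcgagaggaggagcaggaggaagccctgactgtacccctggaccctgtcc
Col11a1, plus strand, chr3:114030440-114030539: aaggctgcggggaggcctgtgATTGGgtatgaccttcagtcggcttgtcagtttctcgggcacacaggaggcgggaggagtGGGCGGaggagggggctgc
Col11a2, plus strand, chr17:34039038-34039137: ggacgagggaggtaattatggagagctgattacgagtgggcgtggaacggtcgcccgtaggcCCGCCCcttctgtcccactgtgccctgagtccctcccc
Both Col11 stretches hold a GC box and the Col3a1 and Col6a3 stretches hold none of the 3 motifs. This contrast does not hold for every gene more than 2-fold lower in cKO 2 than in floxed. Among such genes, stretches outside annotated exons held 1 GC box for Col4a6, 1 for Col23a1 and 3 for Col8a1. They held none of the 3 motifs for Col13a1, Col6a2 and Col9a1. Further stretches that overlap annotated exons held 3 GC boxes for Col6a2 and 1 CCAAT box for Col9a1. A GC box stands in 24.7% of the 32851 mouse stretches of this length and in 18 of 37 belonging to the 34 collagen genes matched, a CCAAT box in 18.9% and in 4 of 37, and a TATA box in 5.56% and in 1 of 37. These are letter matches only.

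Collagen IV, the single type with the most collagen counts, kept a nearly fixed ratio between its main chains. Col4a1 and Col4a2 encode the chains of the form found in all basement membranes, and they lie head to head on chromosome 8 with exons that overlap by 22 bases. Col4a1 had 288 CPM in cKO 1 and 88.5 CPM in cKO 2, against 241 CPM in floxed. Col4a2 had 259 CPM in cKO 1 and 89.2 CPM in cKO 2, against 234 CPM in floxed. Per kilobase of transcript, Col4a1 stood at 1.08 times Col4a2 in cKO 1 and 0.967 times in cKO 2, against 1.0 times in floxed. The ratios to floxed were 1.19 (1.15 to 1.24) and 1.10 (1.06 to 1.15) in cKO 1. In cKO 2 they were 0.368 (0.347 to 0.389) and 0.381 (0.359 to 0.403), about a 2.7-fold lower level and well short of the gap of collagens I and III. Together these 2 chains took 30.3% of all collagen counts in cKO 1 and 33.0% in cKO 2, against 33.1% in floxed.

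The other head-to-head pairs of collagen IV genes were less abundant. Col4a5 and Col4a6, on the X chromosome with 1308 bases between them, encode chains of the same network. Col4a5 had 25.1 CPM in cKO 1 and 9.63 CPM in cKO 2, against 16.6 CPM in floxed. Col4a6 had 13 CPM in cKO 1 and 2.53 CPM in cKO 2, against 10.3 CPM in floxed. The pair did not keep its ratio: per kilobase, Col4a5 was 1.96 times Col4a6 in cKO 1 and 3.87 times in cKO 2, against 1.65 times in floxed, and the ratios to floxed in cKO 2 were 0.581 (0.480 to 0.701) and 0.247 (0.175 to 0.341). Col4a3 and Col4a4, chains known from the kidney filter, had at most 1.69 CPM in any library. Col4a3 had 20 counts in cKO 1 and 8 in cKO 2, against 5 in floxed, so its ratio of 3.66 in cKO 1 has an interval of 1.33 to 12.5. A transcript on the opposite strand covers 5.65% of its exon bases, and the library kit does not mark strand.

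FACIT collagens were the one class with a median below floxed in cKO 1. Of its 8 tested genes, 4 were lower than floxed in both cKO libraries (31.9% of all genes). Col22a1, Col12a1 and Col9a3 were so by more than counting error in each library. Col22a1, known from the junctions of muscle and tendon, had 7.12 CPM in cKO 1 and 3.98 CPM in cKO 2, against 16.5 CPM in floxed, on 139, 74 and 295 counts. Both cKO libraries lay below floxed, with a mean of 5.55 ± 2.22 CPM (SD, n = 2). Its ratio was 0.431 in cKO 1 (0.350 to 0.529) and 0.241 in cKO 2 (0.184 to 0.312). The edgeR fit gave a log2 fold of -1.56 with an SE of 0.39 and an adjusted p of 1. Col12a1, which binds collagen I fibrils, had 8.05 CPM in cKO 1 and 6.03 CPM in cKO 2, against 12.5 CPM in floxed. Over both cKO libraries it averaged 7.04 ± 1.43 CPM (SD, n = 2). The edgeR log2 fold was -0.81 with an SE of 0.30 and an adjusted p of 1.

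The chains of collagen IX, the FACIT that coats cartilage fibrils, were each lower in cKO 2 than in floxed. Col9a3, the most abundant FACIT chain, had 47.1 CPM in cKO 1 and 36.4 CPM in cKO 2, against 57.4 CPM in floxed, with ratios of 0.821 (0.751 to 0.899) and 0.635 (0.575 to 0.700). It shares 6.07% of its exon bases with Tcfl5 on the opposite strand. Col9a2 had 12.8 CPM in cKO 1 and 9.20 CPM in cKO 2, against 12.7 CPM in floxed. Col9a1 had 27 counts in cKO 1 and 13 in cKO 2, against 36 in floxed. For Col9a2 only cKO 2 left floxed by more than counting error, and for Col9a1 the same holds. Col16a1 had 21.2 CPM in cKO 1 and 16.5 CPM in cKO 2, against 21.1 CPM in floxed. Its ratio in cKO 2 was 0.781 (0.670 to 0.911), below floxed by more than counting error. Col14a1, Col19a1 and Col20a1 had at most 2.31 CPM in any library, and all of their intervals against floxed held 1.

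Collagen VI, built from the chains of Col6a1, Col6a2 and Col6a3, was also far below floxed in cKO 2. Col6a1 had 45.7 CPM in cKO 1 and 0.700 CPM in cKO 2, against 30.3 CPM in floxed, on 891, 13 and 540 counts. Col6a2 had 40.5 CPM in cKO 1 and 2.64 CPM in cKO 2, against 29.3 CPM in floxed. Col6a3 had 31.2 CPM in cKO 1 and 1.61 CPM in cKO 2, against 20.9 CPM in floxed. Levels in cKO 2 were 43.3-fold, 11.1-fold and 12.9-fold lower than in floxed, and those in cKO 1 were 1.51, 1.38 and 1.49 times floxed. The interval of Col6a1 in cKO 2 (0.0122 to 0.0399) lay below that of Col6a2 (0.0657 to 0.121), so these neighbours on chromosome 10, which lie on the same strand, were not reduced to the same degree. Per kilobase, Col6a1 was 1.08 times Col6a2 in cKO 1 and 0.256 times in cKO 2, against 0.994 times in floxed, and with all exon bases as the length it was 2.14 times in cKO 1 and 0.504 times in cKO 2, against 1.96 times in floxed. Col6a4, Col6a5 and Col6a6, a row of related genes on chromosome 9, had at most 0.897 CPM in any library.

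Multiplexins, collagens of the basement membrane zone, were lower in cKO 2 by a smaller factor than Col4a1 and Col4a2, the main chains of collagen IV. Col18a1, whose protein releases the angiogenesis inhibitor endostatin, had 109 CPM in cKO 1 and 44.1 CPM in cKO 2, against 91.1 CPM in floxed. Its ratio was 1.19 in cKO 1 (1.12 to 1.27) and 0.485 in cKO 2 (0.445 to 0.527). Col15a1 had 16 CPM in cKO 1 and 8.07 CPM in cKO 2, against 14.5 CPM in floxed. The cKO 2 intervals of both genes lay above those of Col4a1 and Col4a2, and cKO 1 left floxed by more than counting error for Col18a1 alone.

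Most of the remaining types were also lowest in cKO 2. Col26a1 had 54.8 CPM in cKO 1 and 14.6 CPM in cKO 2, against 43.1 CPM in floxed. The short-chain, network-forming collagen VIII was represented by Col8a2, with 14.9 CPM in cKO 1 and 3.71 CPM in cKO 2, against 12.3 CPM in floxed. Its other chain, Col8a1, had 66 counts in cKO 1 and 16 in cKO 2, against 33 in floxed. Of the collagens anchored in the cell membrane, Col23a1 had 24.3 CPM in cKO 1 and 7.10 CPM in cKO 2, against 18.2 CPM in floxed. Col13a1, a membrane collagen of the neuromuscular junction, had 7.43 CPM in cKO 1 and 0.646 CPM in cKO 2, against 4.26 CPM in floxed, a 6.60-fold lower level in cKO 2. The intervals of these 5 genes left out 1 in both libraries, above it in cKO 1 and below it in cKO 2. Membrane collagen XXV did not follow them: Col25a1 had 3.69 CPM in cKO 1 and 3.07 CPM in cKO 2, against 4.26 CPM in floxed, and both intervals held 1. Col7a1, the collagen of the anchoring fibrils of skin, had 8.46 CPM in cKO 1 and 6.41 CPM in cKO 2, against 8.63 CPM in floxed. Its ratio in cKO 2 was 0.742 (0.579 to 0.949), also below floxed by more than counting error. Col17a1 and Col28a1 had at most 10 counts in any library.

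The make-up of the collagen transcripts differed accordingly. Collagens I and III together took 29.7% of collagen counts in cKO 1 (29.2% to 30.2%, exact binomial interval) and 2.59% in cKO 2 (2.29% to 2.93%), against 23.5% in floxed (23.0% to 24.1%). Collagens II, IX and XI took 9.50% in cKO 1 and 30.4% in cKO 2, against 12.7% in floxed. In CPM, however, the sum of collagens II, IX and XI differed less between libraries. It was 171 CPM in cKO 1 and 164 CPM in cKO 2, against 182 CPM in floxed. Its ratios to floxed were 0.941 (0.897 to 0.988) in cKO 1 and 0.903 (0.859 to 0.949) in cKO 2. In cKO 2 this sum joined collagen IX chains and Col11a1, which lay below floxed, with Col2a1 and Col11a2, which lay above it. The Col11a1 ratio in cKO 2 was 0.847 (0.717 to 1.001), an interval that held 1. The larger share in cKO 2 thus stands on a smaller collagen total.

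**Figure D3:**
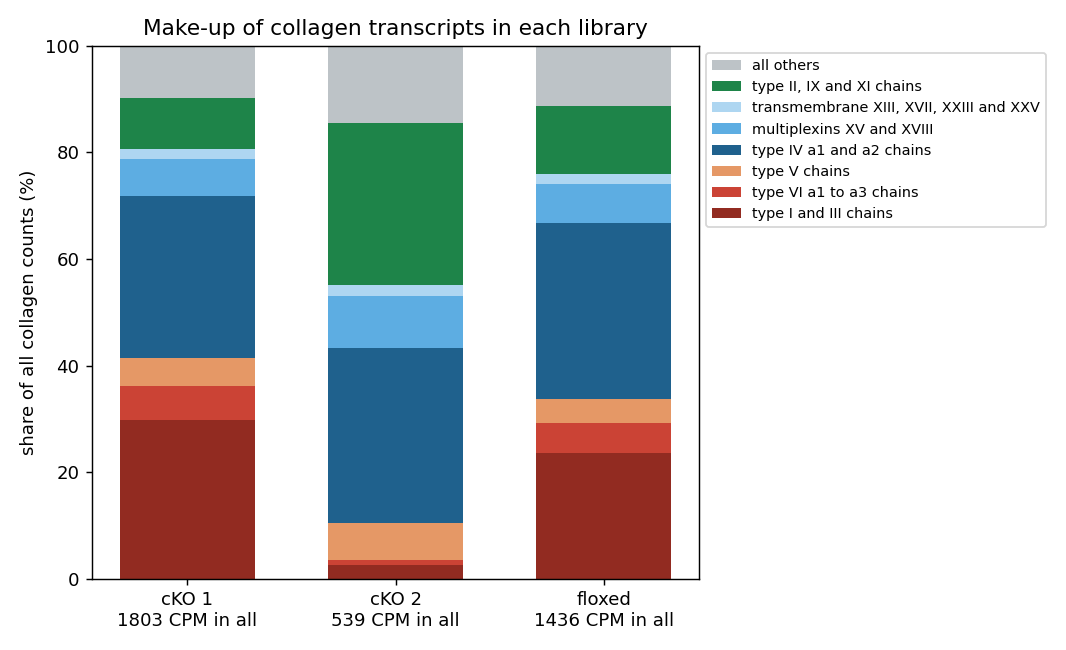
Share of all collagen counts (%) taken by groups of collagen types in cKO 1, cKO 2 and floxed, 1 library per bar, with the summed collagen level under each bar. Collagens I and III take 2.59% in cKO 2, against 23.5% in floxed, and collagens II, IX and XI take 30.4% in cKO 2, against 12.7% in floxed.

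By class, the median log2 ratio over tested genes was 0.57 in cKO 1 and -0.75 in cKO 2 for fibrillar, 0.30 and -1.09 for basement membrane, -0.21 and -0.66 for FACIT and 0.39 and -1.23 for other collagens. The medians over all genes tested were 0.01 in cKO 1 and -0.04 in cKO 2. Of the 39 tested members, 2 reached 10 counts in 1 library only, Col4a3 and Col6a6. The median of the fibrillar class hides its split, since in cKO 2 its 11 genes ran from -5.13 to 0.48.

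Per kilobase of transcript, which allows genes to be ranked, Col4a1 and Col4a2 led the collagens over the 3 libraries, at 43.5 and 40.1 CPM per kilobase in cKO 1 and 13.4 and 13.8 in cKO 2, against 36.4 for each in floxed. Next in cKO 1 came Col3a1 at 38.6 and Col1a2 at 33.2 CPM per kilobase, against 24.5 and 20.8 in floxed. In cKO 2 the leading chain was Col2a1 at 14.9 CPM per kilobase, ahead of Col4a2 at 13.8, Col4a1 at 13.4 and Col9a3 at 12, while Col3a1 stood at 1.23. With all exon bases of a gene as the length, Col4a2 led in every library and Col2a1 stood below Col4a2, Col4a1 and Col9a3 in cKO 2, so the order of these chains depends on the transcript chosen, and it has no replicate spread.

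Genes of the collagen machinery were listed by function, and no test compared these lists with the collagen classes. Of 19 genes for modifying enzymes and chaperones, 1 was more than 2-fold lower in cKO 2 with an interval that left out 1 (6.14% of all genes) and 0 were so in cKO 1 (1.21%), with median log2 ratios of 0.11 in cKO 1 and -0.18 in cKO 2. P4hb, a subunit of prolyl 4-hydroxylase, had 257 CPM in cKO 1 and 235 CPM in cKO 2, against 252 CPM in floxed. Serpinh1, the collagen chaperone HSP47, had 253 CPM in cKO 1 and 188 CPM in cKO 2, against 234 CPM in floxed. The gene past 2-fold, named after its values were seen, was P3h2, a prolyl 3-hydroxylase, on 11 counts in cKO 1 and 4 in cKO 2, against 18 in floxed.

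Of the genes for propeptide processing and crosslinking, 4 of 13 were more than 2-fold lower in cKO 2 (6.14% of all genes) and 0 in cKO 1 (1.21%). Lox, the lysyl oxidase that crosslinks fibrillar collagens, had 22.4 CPM in cKO 1 and 0.484 CPM in cKO 2, against 12.5 CPM in floxed. Its ratio in cKO 2 was 0.0388, with a wide interval of 0.0175 to 0.0749. That interval overlapped those of Col1a1, Col1a2, Col3a1 and Col6a1 to Col6a3, so it singles out none of them. Pcolce, an enhancer of procollagen cleavage, had 14.6 CPM in cKO 1 and 2.75 CPM in cKO 2, against 12.1 CPM in floxed, and Loxl2 had 11.6, 3.01 and 10.4 CPM in the same order. Tll2, a relative of the procollagen protease Bmp1, had 18 counts in cKO 1 and 8 in cKO 2, against 21 in floxed. Bmp1 itself had 85.7 CPM in cKO 1 and 82.8 CPM in cKO 2, against 85.8 CPM in floxed.

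Collagen receptors split by gene, with 2 of 10 in both tables more than 2-fold lower in cKO 2 (6.14% of all genes) and 0 in cKO 1 (1.21%). These were Itga11, an integrin subunit for collagen I, with 9.74 CPM in cKO 1 and 1.72 CPM in cKO 2, against 7.01 CPM in floxed, and the receptor kinase Ddr2, with 13.8, 2.37 and 9.92 CPM. Adgrg1 had 294 CPM in cKO 1 and 345 CPM in cKO 2, against 324 CPM in floxed, and the receptor kinase Ddr1 had 266, 329 and 249 CPM. The transcript of the collagen III receptor was thus at 1.06 times floxed (1.03 to 1.10) in the library in which Col3a1 was 19.9-fold lower.

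Among 6 partners of collagen IV in basement membranes, 2 were more than 2-fold lower in cKO 2 (6.14% of all genes) and 0 in cKO 1 (1.21%). Nid1 and Nid2, the nidogens that link collagen IV to laminin, were these 2. Nid1 had 82.1 CPM in cKO 1 and 21.9 CPM in cKO 2, against 51.6 CPM in floxed, and Nid2 had 44.8, 7.70 and 30.6 CPM. The genes with the highest CPM in the list were Agrn, which encodes agrin, with 534 CPM in cKO 1 and 506 CPM in cKO 2, against 575 CPM in floxed, and Sparc, with 375, 178 and 282 CPM. None of the tested genes of these machinery lists passed the edgeR test (adjusted p under 0.05).

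The summed markers of meninges and fibroblasts, endothelium, pericytes and smooth muscle, and microglia and macrophages were, like the collagen sum, highest in cKO 1 and lowest in cKO 2. The 14 markers of meninges and fibroblasts summed to 433 CPM in cKO 1 and 107 CPM in cKO 2, against 263 CPM in floxed. In cKO 2, 13 of them were more than 2-fold lower than floxed with an interval that left out 1 (6.14% of all genes), with a median log2 ratio of -3.13 (0.72 in cKO 1). No marker of this list was at 0 in any library, but Slc6a13 had 1 count in cKO 2, against 450 in floxed, and Lum and Aldh1a2 had 3 each. The exception, named after its values were seen, was Zic1, which had 110 CPM in cKO 1 and 81.5 CPM in cKO 2, against 64.9 CPM in floxed. Zic1 thus held most of the summed CPM of this list in cKO 2. The 10 endothelial markers summed to 366 CPM in cKO 1 and 175 CPM in cKO 2, against 304 CPM in floxed. That is 0.577 times floxed (0.552 to 0.603) in cKO 2, where the sum of Col4a1 and Col4a2 was 0.374 times (0.359 to 0.390). The 10 markers of pericytes and smooth muscle summed to 334 CPM in cKO 1 and 159 CPM in cKO 2, against 277 CPM in floxed, with Tagln at 0 in cKO 2 on 6 counts in floxed. The part of these cell types in the collagen levels was not tested.

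The remaining lists had other orders, apart from that of microglia and macrophages. The 6 markers of choroid plexus summed to 1064 CPM in cKO 1 and 327 CPM in cKO 2, against 1081 CPM in floxed. The 6 markers of microglia and macrophages summed to 101 CPM in cKO 1 and 25 CPM in cKO 2, against 73.5 CPM in floxed, and the 6 erythroid genes to 1587, 1279 and 1747 CPM in the same order. The 8 markers of neurons, the main cells of the labelled tissue, summed to 6802 CPM in cKO 1 and 6858 CPM in cKO 2, against 6742 CPM in floxed, and the 8 markers of radial glia to 2334, 2300 and 1705 CPM. The neuron sum in cKO 2 was 1.02 times that of floxed, in the library in which Col1a1 was 35.1-fold lower.

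**Figure D4:**
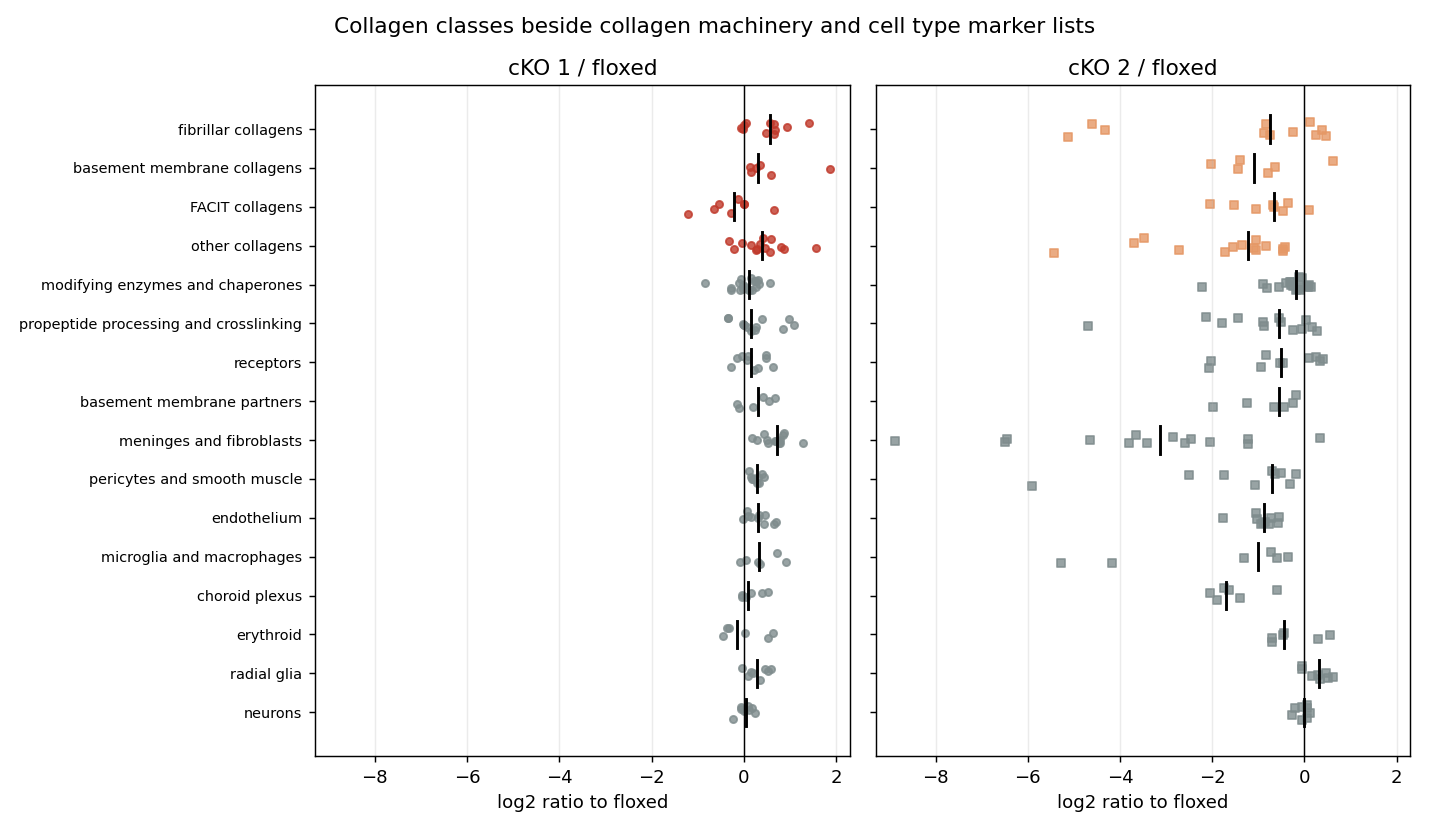
Log2 ratio of cKO 1 (left) and cKO 2 (right) to floxed for each tested gene of the 4 collagen classes (coloured) and of the machinery and marker lists (grey); black bars are list medians. In cKO 2 the meninges and fibroblast markers have a median of -3.13 and the neuron markers of 0.00.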

How the data were processed

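RNA of dissected cortex was sequenced from libraries made with an Illumina TruSeq RNA kit, per the labels' protocols, with 2 µg of total RNA each. TopHat2 2.0.12, Bowtie2 2.2.3 and HTSeq 0.6.0 are named with mm9 in the submitters' processing notes, without roles. Gene positions in the tables match GENCODE M21 (GRCm38) for 42 of 43 collagen genes, so lengths and neighbours come from that annotation. The deposited tables, 1 for each cKO library, hold raw counts per gene and the same floxed counts. The authors' CPM columns equal the deposited count scaled to the library total, with 0.5 put for a count of 0. The authors' deposited ratio (fold change) and its log2 value compare 1 library with 1, and the test behind the deposited p-value is not stated.

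Levels were recomputed as CPM from the counts. A ratio of each cKO library to floxed has an exact 95% Clopper-Pearson interval from the binomial split of its counts, which covers counting error only. A gene was listed as past 2-fold where the ratio passed 2-fold and the interval left out 1. Genes with enough counts (filterByExpr, minimum count 10) entered the edgeR 4.0.16 quasi-likelihood fit (R 4.3.3, TMM) of 2 cKO libraries against 1 floxed library, tested on simulated data. With the spread of the data, the fit missed many of the simulated 2-fold changes and called some unchanged genes. DESeq2 1.42.0 and limma-voom 3.58.1 were alternatives. Per-kilobase levels use the longest principal protein-coding transcript. Collagen genes with a mean of at least 5 CPM, or past 2-fold with at least 20 counts in 1 library, are given by library. Machinery genes are named where past 2-fold with at least 20 counts, and otherwise for the highest CPM. The collagen genes, classes and lists were chosen with earlier results of these data known.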

Additional observations from a re-analysis of the deposited data

How the results depend on the processing

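No collagen gene passed under any normalization, filter or tool tried. Over all genes, edgeR called 1 gene with library totals and DESeq2 called 5, against 0 in the fit reported. Of collagen genes more than 2-fold higher in cKO 1, reported as 2, a minimum of 5 CPM in the highest library left 0, a 1.5-fold threshold gave 10 and the interval alone 21. Those lower in cKO 1, reported as 1, numbered 2 at 1.5-fold and 3 with the interval alone, and those higher in cKO 2, reported as 0, numbered 2 with the interval alone. Collagen genes with all cKO libraries above floxed, reported as 4, numbered 1 at a minimum of 5 CPM and 5 to 29 when 1 cKO library was left out, the 29 without cKO 2. Those below floxed, reported as 8, numbered 5 at a minimum of 5 CPM and 10 to 32 when 1 cKO library was left out, the 32 without cKO 1. The cause of these differences was not tested. TMM or DESeq2 size factors moved the log2 ratio of a single collagen gene by at most 0.04. This turned the sign of ratios next to 0 in cKO 1, for Col11a2 (0.01 as reported, -0.0013 with TMM and -0.0029 with DESeq2 size factors) and Col16a1 (0.01 as reported, -0.0002 with DESeq2 size factors). The count above floxed became 3 with either scaling, and the count below floxed 9 with DESeq2 size factors. Leaving out a cKO library gave no edgeR count, since 1 library against 1 has no residual degree of freedom. No paired analysis was possible because there is 1 floxed library, so the groups share fewer than 2 replicate numbers. Floxed levels rest on 1 library, and genes under about 20 counts have wide intervals.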
